A study of Bos taurus with 48 samples.

Results

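CYP19A1, ESR1, INSR and EGFR were followed through the bovine cumulus-oocyte complex (COC), the oocyte with the cumulus cells that surround it in the follicle. The 4 genes were taken by their Ensembl identifiers, ENSBTAG00000014890 for CYP19A1, ENSBTAG00000007159 for ESR1, ENSBTAG00000012687 for INSR and ENSBTAG00000011628 for EGFR, and all 4 were found among the 24616 genes with a transcript level. CYP19A1 encodes aromatase, which converts androgens to oestrogens, and ESR1 encodes oestrogen receptor alpha. INSR encodes the insulin receptor and EGFR the epidermal growth factor (EGF) receptor, both tyrosine kinases of the cell surface. Transcript levels were given as FPKM, the number of sequenced fragments divided by the length of the transcript and by the size of the library.

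In the ovary, cumulus cells are specialised granulosa cells that stay attached to the oocyte through cell processes that cross the zona pellucida. Granulosa cells take up androgens made by theca cells, and aromatase turns them into oestradiol, which acts through oestrogen receptors. Insulin and insulin-like growth factors support growth and steroid synthesis in these cells, and EGF-like peptides carry the ovulatory signal to the EGF receptor of the cumulus, where it leads to cumulus expansion and resumption of meiosis.

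The study dissected 16 untreated bovine COCs, numbered 176 to 192, into the oocyte, the cumulus cells nearest the zona pellucida (innerCCs) and the outer layer of cumulus cells (outerCCs), and made 1 polyA+ library from each, 48 in all. No group differed by genotype, treatment or time, and the age of the cows and which COCs shared a cow were not given, so p-values measure the spread between COCs. An innerCC or outerCC library is a pool of cells, and in such a pool fewer cells of a type and less RNA per cell cannot be told apart. The outer layer was taken off with enzyme and pipetting, so the border between innerCCs and outerCCs is set by that step.

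The libraries of innerCCs fell into 2 sets by the number of genes they held. Those of COCs 176 to 184 held 648 to 2639 genes with FPKM over 0.5, and those of COCs 185 to 192 held 5876 to 10295, against 8525 to 11340 in oocytes and 9054 to 11851 in outerCCs. Each layer was therefore also compared within COCs 185 to 192. Of 12 oocyte markers 7 could be matched to a gene, and their summed FPKM was 912 to 2070 in oocytes. It stayed under 2 in the outerCCs except those of COC 191 (361) and COC 190 (49.1), and was at most 1.45 in innerCCs of COCs 176 to 184 and at most 86.998 in those of COCs 185 to 192, reached in COC 190. Of 12 cumulus or granulosa markers only the inhibin and activin subunits INHA, INHBA and INHBB were matched, with summed FPKM of 188 to 4772 in outerCCs and 228 to 1874 in innerCCs of COCs 185 to 192. The same sum was 3.05 to 179 in innerCCs of COCs 176 to 184 and at most 23.0 in oocytes, except 161 in the oocyte of COC 191. Of 9 theca or stroma markers COL1A1 and COL1A2 were matched, with sums of 1.28 to 30.5 in outerCCs, and of 9 blood, immune or endothelial markers CSF1R and VWF, with sums of 0 to 6.64 in outerCCs and 1.99 to 16.4 in oocytes.

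EGFR had the highest level of the 4 genes in the outerCCs, and it was the only member with a level over 0.5 in most oocytes. Its FPKM in the 16 outerCC libraries was 3.66 at the lowest, 19.03 at the median and 25.9 at the highest. The lowest value belonged to COC 180, whose outerCC library also had the lowest FPKM total (161294, against up to 696268) and the lowest sum of cumulus markers. Among the genes over 0.5 in the same library, EGFR lay at a median rank above 73.0% of them.

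By its median CYP19A1 came second, with more than an order of magnitude between COCs. Its outerCC FPKM ran from 0.437 in COC 180 through a median of 5.37 to 37.2 in COC 187. The next highest values were 18.6 in COC 188, 15.1 in COC 177 and 11.3 in COC 176. In COC 192 the level was 0.773, although EGFR in that library was 21.1. Aromatase transcript was over 0.5 in 15 of 16 outerCC libraries.

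INSR was over 0.5 in all 16 outerCC libraries, from 0.905 in COC 186 through a median of 4.53 to 33.3 in COC 192. The library of COC 192 stood alone, since the other 15 reached at most 6.81. ESR1 had the lowest level, from 0 in COC 186 through a median of 0.592 to 1.44 in COC 192. It was over 0.5 in 10 of 16 outerCC libraries, where the detection rule asked for 8, and among the genes over 0.5 its median rank was above 8.501% of them.

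FPKM is per kilobase, so these levels can be ordered between genes. In outerCCs EGFR was above CYP19A1 in 15 of 16 COCs, with COC 187 the exception, and above INSR in 15 of 16, with COC 192 the exception. CYP19A1 and INSR did not separate, since CYP19A1 was the higher in 10 of 16 COCs and INSR in 6. ESR1 was below INSR in all 16 and below CYP19A1 in 15 of 16. In innerCCs of COCs 185 to 192 EGFR was above CYP19A1 in 7 of 8, CYP19A1 above INSR in 7 of 8 and INSR above ESR1 in 8 of 8.

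**Figure D1:**
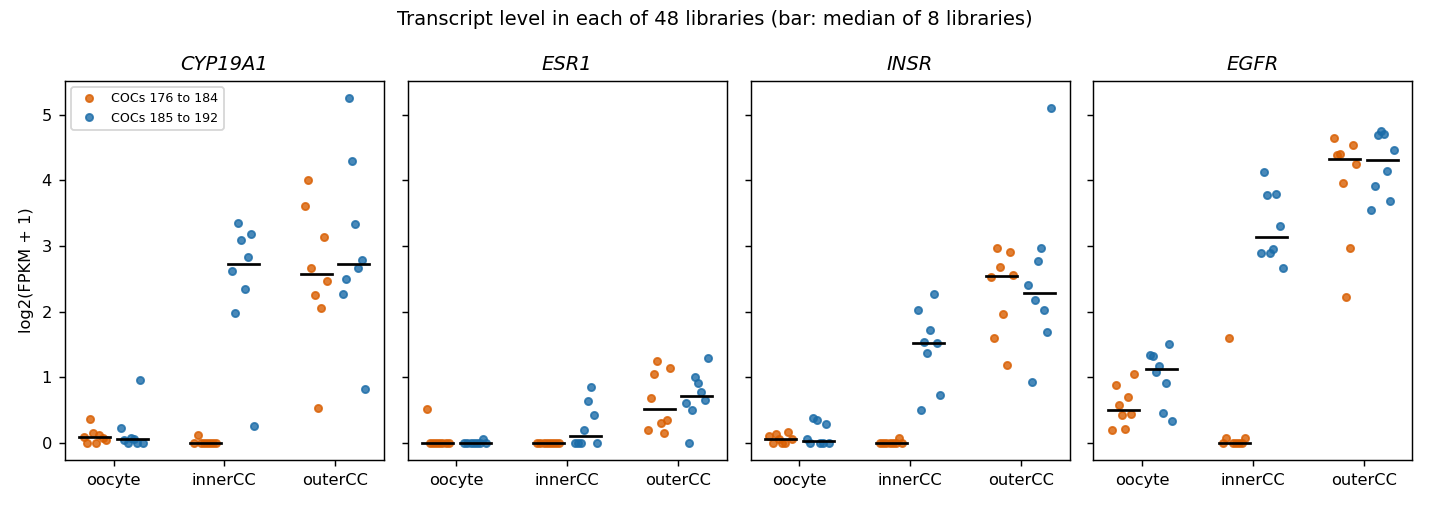
Transcript level of CYP19A1, ESR1, INSR and EGFR as log2(FPKM + 1) (vertical axis) in the 16 oocyte, 16 innerCC and 16 outerCC libraries (horizontal axis). Each point is a library, orange for COCs 176 to 184 and blue for COCs 185 to 192, and each bar is the median of 8 libraries. The orange innerCC libraries lie at or near 0 for all 4 genes except EGFR in COC 178 (FPKM 2.03), and a single outerCC library, that of COC 192, stands apart for INSR (FPKM 33.3).

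The comparison of oocytes with outerCCs asked in which compartment the transcripts of these receptors and of aromatase lie. EGFR FPKM in oocytes was 0.147 at the lowest, 0.728 at the median and 1.83 at the highest, and over 0.5 in 9 of 16. Every oocyte was below every outerCC library, and groups that did not overlap in this direction were found for 8.84% of the 12428 genes tested. The log2 fold change (FPKM + 1, oocyte minus outerCC) was -3.30 with an SE of 0.206 (limma, adjusted p = 7.2e-17), where the median of all genes was 0.25. Adding 1 to each value shrinks the fold change of a gene whose FPKM is low.

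INSR in oocytes ran from 0 through a median of 0.0392 to 0.299, over 0.5 in 0 of 16, and likewise did not overlap with outerCCs. Its log2 fold change was -2.30 with an SE of 0.235 (limma, adjusted p = 3.8e-11). CYP19A1 in oocytes ran from 0 through 0.0465 to 0.938, and was over 0.5 only in COC 191. Each oocyte was below the outerCCs of its own COC, as was found for 17.1% of genes, though the groups overlapped. For CYP19A1 the log2 fold change was -2.65 with an SE of 0.289 (limma, adjusted p = 1.8e-10).

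ESR1 was listed at 0 in 14 of 16 oocytes and had values above 0 in COC 176 (0.428) and COC 191 (0.0370). In COC 176 the oocyte value was above that of the outerCCs (0.148), and in 14 other COCs it was below. The log2 fold change was -0.64 with an SE of 0.131 (limma, adjusted p = 3.5e-05), and in COCs 176 to 184 alone it was -0.57 and no longer passed (limma, adjusted p = 0.0190). Exact sign-flip permutation over the 16 COCs gave two-sided p = 3.05e-05 for EGFR, INSR and CYP19A1, the smallest it can give, and p = 0.000244 for ESR1.

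At a false discovery rate (FDR) under 0.01, all 4 genes were lower in oocytes, as were 34.3% of all genes tested, while 43.4% were higher. The median of all genes moved from 0.25 to 0.04 with libraries scaled to the same FPKM total and to -0.24 with median-of-ratios scaling, and the 4 genes stayed below it and past the threshold under both. CYP19A1, ESR1 and INSR entered the test only because they were detected in outerCCs. A lower level in oocytes, or in innerCCs, was therefore set by the way they entered. Neither their count nor their p-values against outerCCs, from limma or from sign-flip permutation, carry weight. EGFR was detected in all 3 sample types.

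The oocyte level of EGFR was also set against abundant cumulus transcripts of the same libraries. As a percent of the outerCC FPKM of the same COC, EGFR in oocytes was 0.609% at the lowest, 4.34% at the median and 15.4% at the highest. The median was 0.0260% for INHA, 0.108% for INHBA and 0.0293% for CYP11A1, the enzyme of the first step of steroid synthesis. The percent of EGFR exceeded that of INHA in 16 of 16 COCs, that of INHBA in 14 and that of CYP11A1 in 15. These comparators were among the genes most depleted in oocytes against outerCCs. Genes with a lower log2 fold change were 0% of all genes for INHA, 0.0966% for INHBA and 0.298% for CYP11A1. That share was 4.39% for EGFR, 7.32% for CYP19A1, 9.74% for INSR and 8.97% for IGF1R, a relative of INSR. For CYP19A1 and INSR the median percents were 0.627% and 0.809%. Both were also above the medians of INHA, INHBA and CYP11A1, so this was not particular to EGFR. Their percent exceeded that of INHA in 11 and 9 of 16 COCs, and they were listed at 0 in 5 and 7 of 16 oocytes. The oocyte of COC 191, with the highest EGFR (15.4% of its outerCCs) and the highest CYP19A1 (15.9%), also held 8.54% of the outerCC level of INHA, 10.5% of that of INHBA and 9.59% of that of CYP11A1, and their part in its values was not tested.

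**Figure D2:**
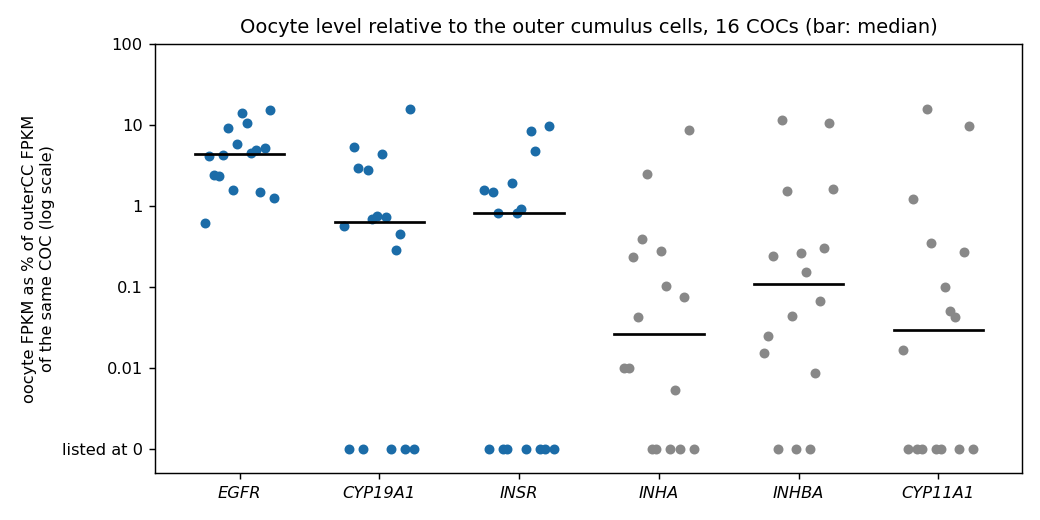
Oocyte FPKM as a percent of the outerCC FPKM of the same COC (vertical axis, log scale, values of 0 drawn on the lowest line) for EGFR, CYP19A1 and INSR (blue) and for the cumulus transcripts INHA, INHBA and CYP11A1 (grey). Each point is 1 of 16 COCs and each bar the median, which was 4.34% for EGFR, 0.627% for CYP19A1, 0.809% for INSR and 0.0260% for INHA. ESR1 is not drawn because its outerCC value was 0 in COC 186 and its oocyte value was 0 in 14 COCs.

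The comparison of innerCCs with outerCCs asked whether position relative to the oocyte goes with different transcript levels. Over all 16 COCs, the innerCC values of COCs 176 to 184 were at or near 0. CYP19A1 was listed at 0 in 7 of these 8 libraries and at 0.0848 in COC 177, INSR at 0 in 7 and at 0.0504 in COC 183, and ESR1 at 0 in all 8. EGFR was listed at 0 in 5, with values of 0.0556 in COC 177, 2.03 in COC 178 and 0.0526 in COC 184.

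The log2 fold change over 16 COCs (innerCC minus outerCC) was -2.32 with an SE of 0.445 for EGFR (limma, adjusted p = 4.5e-05) and -1.67 with an SE of 0.314 for INSR (adjusted p = 3.9e-05). It was -1.56 with an SE of 0.456 for CYP19A1 (limma, adjusted p = 0.00253) and -0.55 with an SE of 0.126 for ESR1 (adjusted p = 0.00028). All 4 were lower at FDR under 0.01, but so were 77.4% of all genes tested, and the median of all genes was -1.42. With the number of genes in a library as a covariate none of the 4 passed, and the value for CYP19A1 turned to 0.26 (limma, adjusted p = 0.864).

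Within COCs 185 to 192, where innerCC libraries held more genes, the differences were smaller. EGFR FPKM in innerCCs was 5.37 at the lowest, 7.83 at the median and 16.4 at the highest, against 10.8, 18.9 and 25.9 in outerCCs. It was lower in innerCCs in 7 of 8 COCs, with COC 186 the exception (16.4 against 14.1), and the layers overlapped. At least 7 of 8 COCs were lower for 46% of all genes tested. The innerCC level was 24.7% to 116% of that in the outerCCs, with a median of 55.6%. The log2 fold change of -0.94 (SE 0.253, 95% confidence interval -1.48 to -0.40) had an adjusted p of 0.0193 in limma and did not pass FDR under 0.01. Under median-of-ratios scaling, which moved the median of all genes from -0.71 to -0.10, it was -0.04 (limma, adjusted p = 0.980).

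INSR in innerCCs ran from 0.411 through 1.88 to 3.80, against 0.905, 3.89 and 33.3 in outerCCs. It was the lower in innerCCs in 7 of 8 COCs, with COC 190 the exception (3.80 against 3.08). Its widest gap was in COC 192, 0.655 against 33.3. On the log2 scale the fold change was -1.05 (SE 0.458, 95% confidence interval -2.02 to -0.08, limma, adjusted p = 0.0828), and -0.58 without COC 192 (adjusted p = 0.205). It was -0.38 under median-of-ratios scaling (limma, adjusted p = 0.806).

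CYP19A1 went in no common direction. Its innerCC FPKM ran from 0.187 through 5.64 to 9.25, against 0.773, 5.63 and 37.2 in outerCCs, so the medians of the layers were close. It was lower in innerCCs in 5 of 8 COCs and higher in COC 185 (5.14 against 3.82), COC 190 (6.13 against 5.36) and COC 191 (8.11 against 5.90). In COC 187, with the highest outerCC level, the innerCC level was 9.25, the highest of its layer too. With a log2 fold change of -0.53 (SE 0.558, limma, adjusted p = 0.443), its 95% confidence interval of -1.72 to 0.65 left room for a difference in either direction.

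ESR1 was listed at 0 in 4 of the 8 innerCC libraries and was over 0.5 in COC 189 (0.548) and COC 190 (0.808). In outerCCs of the same 8 COCs the median was 0.647. It was lower in innerCCs in 6 COCs, higher in COC 190 and at 0 in both layers of COC 186. In limma the log2 fold change was -0.45 (SE 0.189, 95% confidence interval -0.85 to -0.05, adjusted p = 0.0733).

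None of the 4 passed FDR under 0.01 within COCs 185 to 192, where 1.53% of all genes tested were lower in innerCCs and the median of all genes was -0.71. At an unadjusted p under 0.05, 48.4% of all genes were lower. The log2 fold changes of CYP19A1 and ESR1 lay above those of 63.2% and 68.7% of all genes, and those of INSR and EGFR above 23.4% and 31.9%. Exact sign-flip permutation over the 8 COCs gave two-sided p = 0.102 for CYP19A1, 0.0312 for ESR1, 0.0234 for INSR and 0.0156 for EGFR, where the smallest possible value is 0.00781.

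A ratio of 2 transcripts in the same library does not depend on how the library was scaled. From outerCCs to innerCCs of COCs 185 to 192, the log2 ratio of CYP19A1 to EGFR was higher by 0.26 ± 0.832 (SD, n = 8 COCs, exact sign-flip permutation, two-sided p = 0.391, adjusted p = 0.562 over 3 ratios). That of CYP19A1 to INSR was higher by 0.69 ± 1.35, in 6 of 8 COCs (exact permutation p = 0.172, adjusted p = 0.516), and that of INSR to EGFR differed by -0.43 ± 1.45 (exact permutation p = 0.562), with 6 of 8 COCs higher in innerCCs and COC 192 far lower. None of the 3 differences exceeded the spread of the COCs. These ratios were computed after the values had been seen.

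**Figure D3:**
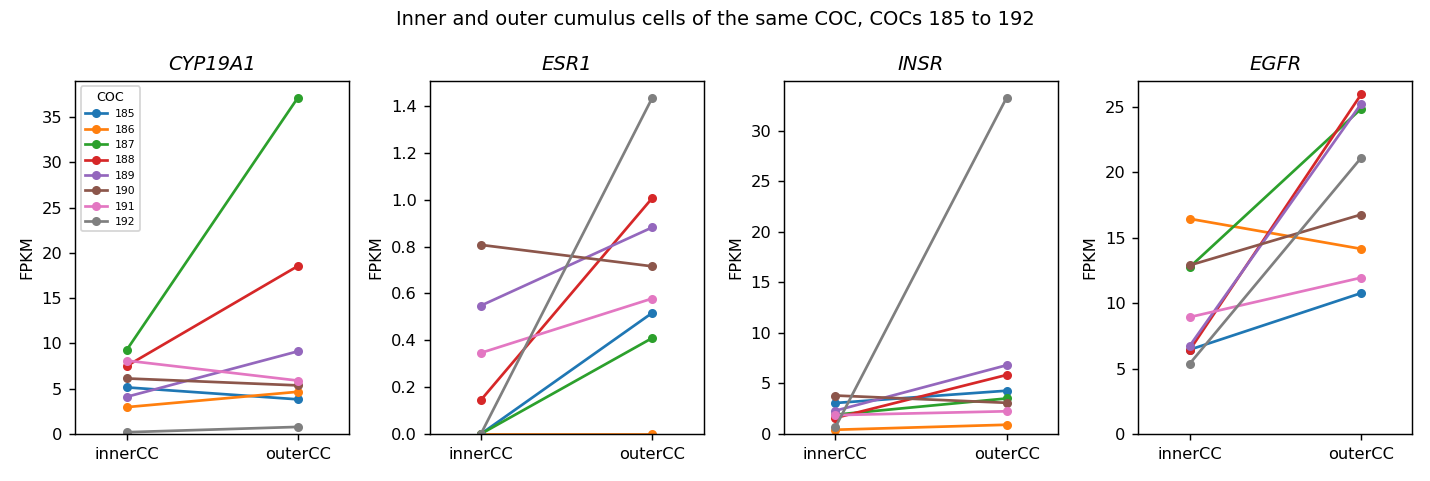
FPKM (vertical axes, each from 0) of CYP19A1, ESR1, INSR and EGFR in innerCCs and outerCCs, with a line for each of COCs 185 to 192. Lines of EGFR and INSR climb from innerCC to outerCC in 7 of 8 COCs, those of CYP19A1 in 5 of 8, and the line of COC 192 sets the range of INSR.

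Oocytes were compared with innerCCs in COCs 185 to 192 only. EGFR, INSR and CYP19A1 were lower in the oocyte in all 8 COCs, as were 9.68% of genes, and EGFR and INSR did not overlap between the groups, as was found for 5.13%. At FDR under 0.01, 14.1% of genes were lower in oocytes and 48.8% were higher, with a median over all genes of 0.90. The log2 fold change was -2.29 for EGFR (SE 0.255, limma, adjusted p = 1.7e-07), -1.32 for INSR (SE 0.241, adjusted p = 6.9e-05) and -2.29 for CYP19A1 (SE 0.353, adjusted p = 1.1e-05). ESR1 did not pass, at -0.26 with a 95% confidence interval of -0.64 to 0.12 (limma, adjusted p = 0.205). Both oocyte comparisons and both layer comparisons share libraries, so their values are not independent of each other.

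**Figure D4:**
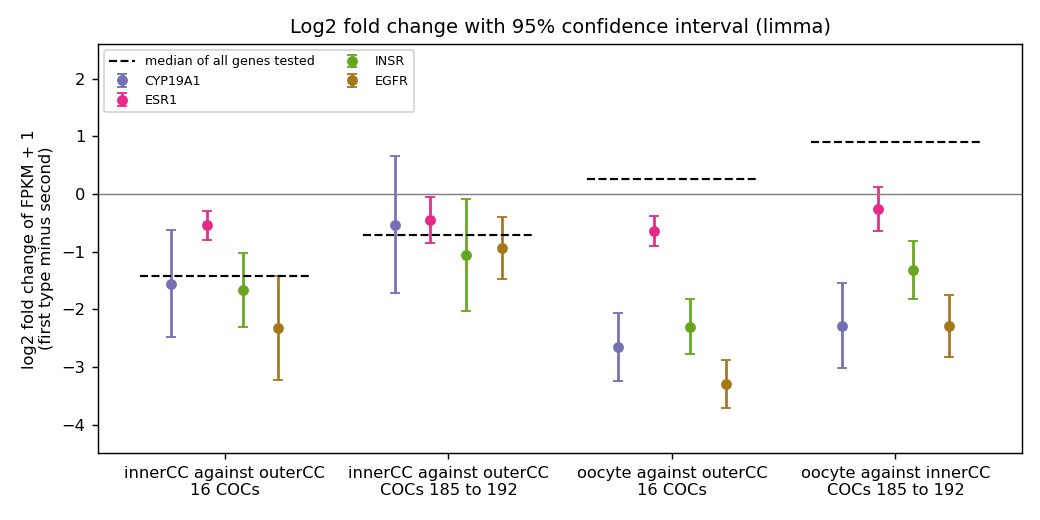
Log2 fold change of FPKM + 1 (vertical axis, first named sample type minus the second) for the 4 genes in 4 comparisons, with 95% confidence intervals from limma. The dashed lines are medians over the 12428 genes tested, -1.42, -0.71, 0.25 and 0.90 from left to right, and in the 2 comparisons of innerCCs with outerCCs the intervals of the 4 genes reach across these lines, except that of ESR1 over 16 COCs.

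Differences between COCs were examined across the 16 outerCC libraries on log2(FPKM + 1). CYP19A1 and EGFR were related, with Pearson r = 0.677 (permutation p = 0.00391, adjusted p = 0.0117 over 6 pairs) and Spearman rho = 0.741 (permutation p = 0.00136, adjusted p = 0.00816). The r was 0.470 without the 2 COCs farthest from the median of CYP19A1, 0.884 in COCs 176 to 184 and 0.479 in COCs 185 to 192. Without COC 192 it was 0.835 (permutation, adjusted p = 0.00066). When each library was scaled to the same FPKM total, r was 0.445 and no longer passed (permutation, adjusted p = 0.168). EGFR itself had an r of 0.915 with the log2 FPKM total of the library, and CYP19A1 0.645.

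ESR1 and INSR were related with Pearson r = 0.675 (permutation p = 0.00187, adjusted p = 0.0112) and Spearman rho = 0.682 (permutation p = 0.00479, adjusted p = 0.0144). The r was 0.497 without the 2 COCs farthest from the median of ESR1, 0.477 in COCs 176 to 184 and 0.875 in COCs 185 to 192. It was 0.621 without COC 192 (permutation, adjusted p = 0.0414) and 0.632 with libraries scaled to the same total (adjusted p = 0.0514). Their r with the log2 FPKM total was 0.288 and 0.322.

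The other 4 pairs did not pass in Pearson r. CYP19A1 had r = -0.210 with INSR (permutation, adjusted p = 0.511), which was -0.572 with scaled totals (permutation p = 0.0231, adjusted p = 0.0693) and 0.208 without COC 192, and r = -0.08 with ESR1 (adjusted p = 0.774). INSR and EGFR had r = 0.442 (permutation, adjusted p = 0.190) and rho = 0.624 (adjusted p = 0.0231), and ESR1 and EGFR had r = 0.385 (adjusted p = 0.212).

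For CYP19A1, COCs with more transcript in outerCCs tended to have more in innerCCs. Over COCs 185 to 192 r was 0.794 (exact permutation p = 0.0189, adjusted p = 0.0756 over the 4 genes) and rho 0.762 (exact permutation p = 0.0368, adjusted p = 0.147), so the relation did not pass the adjustment. It rested on COCs 187 and 192, as r was 0.383 without the 2 COCs farthest from the median. The r was 0.230 for ESR1, -0.156 for INSR and -0.186 for EGFR, and the median over 11929 genes was 0.184.

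The genes most like each member across the 16 outerCC libraries were ranked by Pearson r, as a description. Only genes detected in outerCCs and with a symbol were taken. For CYP19A1 the most alike included CYP11A1 (r = 0.941) and FAM162A (0.931), at ranks 4 and 12 among all detected genes, with or without a symbol. CYP11A1 outerCC FPKM ran from 20.5 through 158 to 647, highest in COC 187 and low in COCs 180 and 192, as for aromatase. The r with CYP11A1 was 0.892 without the 2 farthest COCs, 0.904 with scaled totals, and 0.931 and 0.9753 in the 2 sets of COCs.

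For ESR1 the closest with a symbol were DDO, D-aspartate oxidase (r = 0.910), MSANTD2 (0.876) and CCDC158 (0.803), at ranks 1, 2 and 10 among all detected genes. Only 13 of 10458 genes detected in outerCCs had an r over 0.8 with ESR1. For INSR they were ARMC4 (0.946), LRP12 (0.938) and the transcription factor MYC (0.938), and the r values were 0.876, 0.876 and 0.856 without COC 192. For EGFR they included BCKDK, the kinase of branched-chain ketoacid dehydrogenase (0.974), and ATP5A1, a nuclear gene for a subunit of the mitochondrial ATP synthase (0.957). With scaled totals the r was 0.900 for BCKDK and 0.746 for ATP5A1. EGFR had an r over 0.8 with 2565 genes, 24.5% of those detected, against 389 for CYP19A1 and 227 for INSR. These counts are without scaling, and EGFR had an r of 0.915 with the log2 FPKM total of the library.

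**Figure D5:**
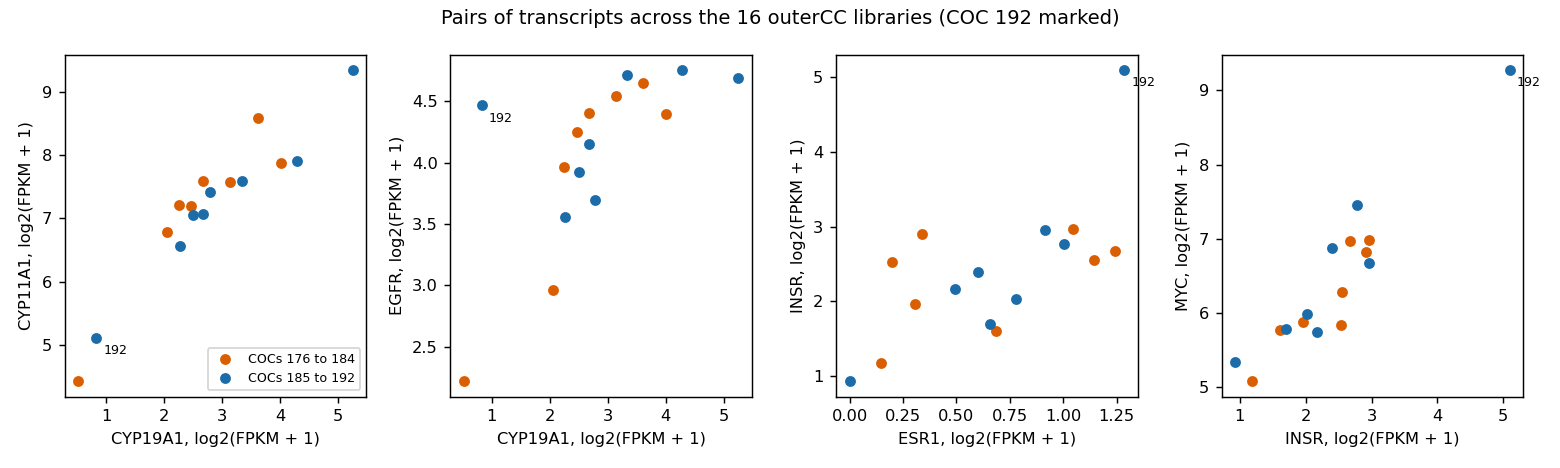
Levels as log2(FPKM + 1) of 4 pairs of transcripts across the 16 outerCC libraries, each point a COC, orange for COCs 176 to 184 and blue for COCs 185 to 192. CYP19A1 and CYP11A1 lie close to a line (r = 0.941), COC 192 departs from the trend of CYP19A1 and EGFR, and it is the highest library for ESR1, INSR and MYC.

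The outerCCs of COC 192 combined low aromatase with high INSR and ESR1. ESR1 there was only 1.05 times the next highest library. INSR was 4.88 times the next highest, and 49 of the 10459 genes detected in outerCCs (0.468%) had their highest value in that library with a gap at least as wide. Since 17.8% of those 10459 genes had their highest value in this library, being highest there was common. The receptor IGF1R (18.9, others 2.90 to 15.8) and the adaptor IRS1 (6.90, others 0 to 3.34), which carries signals from the insulin and IGF receptors, were also highest there. So were AKT1 (11.1, others 2.28 to 10.8), NR5A1, a transcription factor of steroidogenic genes (19.8, others 2.02 to 18.7), and MYC (618, others 32.8 to 173.9). These genes were picked after the values were seen. How many of the 11 matched genes of the insulin and IGF list were highest in this library was not examined, so no pattern of the pathway can be read from them.

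CYP11A1 was 33.5 in this library, with 14 of the other 15 above it. HSD3B1, a dehydrogenase of steroid synthesis, was 18.4 and INHBA 22.03, each with 14 of 15 above. The INHA level was 803, with 12 of 15 above. Of the theca or stroma markers, COL1A1 was highest in this library (30.5, others 1.28 to 18.98) and COL1A2 was at 0. The innerCC library of COC 192 had the fewest genes of its set (5876). The part of other cell types or of RNA quality in these values was not tested.

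The other genes of each pathway were taken from lists, of which only those with a symbol could be matched. Between oocytes and outerCCs, 34.3% of all genes tested were lower in oocytes and 43.4% higher. Between layers of COCs 185 to 192, 1.53% of all genes tested were lower in innerCCs at FDR under 0.01 and 0% higher. Of the list genes named here, HSD17B4, HSD17B12, PGRMC1, NCOA2, EP300, IGF1R, AKT1, ADAM17, GRB2 and NRAS were detected in both oocytes and outerCCs. The rest entered the test through the compartment in which they were high, so the direction between oocytes and outerCCs was set by the way they entered and their values are given as a description. For oestrogen synthesis 6 of 16 were matched. CYP11A1, HSD3B1, NR5A1 and HSD17B7 were lower in oocytes than in outerCCs, with log2 fold changes from -6.45 for CYP11A1 to -2.50 for HSD17B7. HSD17B12 was higher at 1.502, and HSD17B4 did not pass (-0.17, limma, adjusted p = 0.450), though it passed as lower with scaled totals (-0.46) and with median-of-ratios scaling (-0.84). The median of the list was -2.65, against 0.25 over all genes. It is a description too, because the direction of CYP11A1, HSD3B1, NR5A1 and HSD17B7 was set by the way they entered. None of the 6 passed between layers in COCs 185 to 192, where CYP11A1 was at -0.87 (limma, adjusted p = 0.171) and NR5A1 at -1.46 (adjusted p = 0.0110).

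Of 16 steroid receptors and cofactors 6 were matched. NRIP1, a corepressor of oestrogen receptors, had a median outerCC FPKM of 4.45 and was lower in oocytes, at -2.11. GPER1, a membrane receptor for oestrogen, was over 0.5 in 11 of 16 oocytes (median 1.16) and in 0 of 16 outerCCs, with a log2 fold change of 0.97. PGRMC1, a progesterone receptor membrane component, had medians of 193 in oocytes and 71.3 in outerCCs and was higher at 1.66. NCOA2, a steroid receptor coactivator, was higher at 0.73, and EP300 did not pass (-0.21, limma, adjusted p = 0.315). Under median-of-ratios scaling NCOA2 no longer passed (0.37) and EP300 passed as lower (-0.57). None of the 6 passed between layers in COCs 185 to 192.

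For the insulin and IGF pathway 11 of 30 were matched. Between oocytes and outerCCs 8 were lower, 2 were higher and 1 did not pass, with a list median of -1.05 against 0.25 over all genes. These counts and the median are a description, because the direction of part of the list was set by the way genes entered the test. IGF1R, the receptor most closely related to INSR, had an outerCC FPKM from 2.90 through 8.03 to 18.9 and in oocytes from 0.155 through 0.655 to 1.83. Its log2 fold change was -2.41 (limma, adjusted p = 1.8e-13). IGFBP4, a binding protein of IGFs, was lower in oocytes at -4.07, IRS1 at -1.27 and IGF2R at -0.75, whereas IGFBP2 (2.09) and GRB10, an adaptor that binds the insulin receptor (1.48), were higher.

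Between layers of COCs 185 to 192, AKT1, a kinase downstream of these receptors, was the only gene of the insulin and IGF list that passed. Its FPKM was 0 at the lowest, 1.18 at the median and 4.65 at the highest in innerCCs, and it was lower there in 8 of 8 COCs. Its log2 fold change was -1.76 (limma, adjusted p = 0.00997), at the edge of the threshold, and it no longer passed with scaled totals (-1.52, adjusted p = 0.0850) or median-of-ratios scaling (-1.14, adjusted p = 0.369). With the COC as a replicate block, no gene passed in this comparison, AKT1 included. IGF1R was at -1.05 (limma, adjusted p = 0.0309) and IRS1 at -0.96 (adjusted p = 0.0411).

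Of 32 genes of the EGF pathway 8 were matched, and among ligands of the EGF receptor only BTC, betacellulin. Its outerCC FPKM ran from 2.33 through 4.94 to 7.38, and it was listed at a median of 0 in oocytes, with a log2 fold change of -2.46. ERBB2 and ERBB3, which pair with EGFR, had median outerCC FPKM of 0.742 and 0.611 and were lower in oocytes at -0.78 and -0.70. ADAM17, a protease that sheds EGF-like ligands, was lower at -0.77. The signal transducer NRAS (1.19) was higher in oocytes, and GRB2 (-0.01) did not pass. No gene of the list passed between layers in COCs 185 to 192, where ERBB3 was at -0.42 (limma, adjusted p = 0.0159).

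Of 8 genes of cumulus expansion 3 were matched. ADAMTS1, a protease of the expanding matrix, was over 0.5 in 13 of 16 outerCCs and lower in oocytes (-1.05). HAS2, the hyaluronan synthase, was over 0.5 in 3 of 16 outerCCs and had a median of 16.5 in oocytes, where it was higher (3.40), as was the hyaluronan receptor CD44 (1.70).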

How the data were processed

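The submitters' processing notes and the methods name STAR 2.5.2, Picard 2.5 and Cufflinks 2.2.1 on the UMD 3.1 genome, with Ensembl genes. The authors deposited FPKM per gene, unfiltered and filtered, and compared sample types on counts not used here. The 2 deposited FPKM tables differed only by the filter, and the unfiltered one was analysed. The number of fragments behind a value is unknown, so no counting interval was given.

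Genes with FPKM over 0.5 in 8 or more libraries of a sample type were tested (12428 of 24616). Sample types were compared with limma 3.58.1 in R 4.3.3 (eBayes without trend) on log2(FPKM + 1), pseudocount 1, at a Benjamini-Hochberg FDR under 0.01 over all genes tested. Single genes were also compared within COCs by exact sign-flip permutation, and relations between libraries by 100000 permutations, or all permutations for 8 COCs, with Python 3.11.15, numpy 2.4.6 and scipy 1.17.1. The methods were tested on simulated data. The study fitted a collection batch that the labels do not give, so none was fitted here. Which COCs shared a batch is unknown, so its part in differences between COCs cannot be told apart.

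Libraries of the same number come from 1 COC. The mean correlation of their deviations from their sample type was 0.154 for innerCCs and outerCCs of a COC, and -0.00916 for those of different COCs. For oocytes and outerCCs the 2 values were 0.0102 and -0.00270, and for oocytes and innerCCs 0.0480 and -0.00269.

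Symbols were known for 4185 of the genes tested (33.7%), copied from the study's supplementary lists, 1 of them matched through an older symbol. Genes named beside the 4 members are their close relatives and ligands, the most abundant genes of each of 9 lists, list genes past the FDR between layers, and the 3 genes of highest r with a member. A few of them were left out of the text. The members and lists were chosen with earlier results of these data known, and the genes shown for COC 192 after its values were seen. No other columns of values remained unmapped. Alternatives covered the pseudocount, the filter, the scaling, the COC as a block, the number of genes as a covariate, and leaving out each COC.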

Additional observations from a re-analysis of the deposited data

Results flagged for a closer look

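The 4 genes were examined in 24 groups of 8 libraries in all (3 sample types by 2 sets of COCs for each gene) for a library whose gap to its nearest neighbour took up an unusually large part of the group's range, and 8 groups held such a library. The cut-off is meant to flag about 1 in 20 groups of normally distributed values by chance. That rate need not hold for FPKM, and groups in which nearly all values are 0 are flagged by any value above 0. The group of ESR1 in innerCCs of COCs 176 to 184 was at 0 throughout and could not be flagged.

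INSR in the outerCCs of COC 192 was 33.3 FPKM, with the next library of COCs 185 to 192 at 6.79. CYP19A1 in the oocyte of COC 191 was 0.938, with the next at 0.166, and ESR1 in the same oocyte was 0.0370, with the others at 0. CYP19A1 in the oocyte of COC 178 was 0.284, with the next of COCs 176 to 184 at 0.112. ESR1 in the oocyte of COC 176 was 0.428, with the others at 0.

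In innerCCs of COCs 176 to 184, EGFR was 2.03 in COC 178, with the next at 0.0556. CYP19A1 was 0.0848 in COC 177 and INSR was 0.0504 in COC 183, with the other 7 libraries at 0 in each case.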

How the results depend on the processing

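Across all settings, the oocyte comparisons kept every call of the 4 genes except ESR1 in COCs 176 to 184 alone (-0.57). For CYP19A1, ESR1 and INSR, calls kept against outerCCs carry no weight, because their direction was set by the way they entered the test. Leaving out each COC in turn lost or reversed no call of the 4 genes in any comparison, and the COC as a replicate block changed none. Over 16 COCs, innerCC against outerCC lost CYP19A1 (-0.72) and ESR1 (-0.22) under median-of-ratios scaling. That scaling rested on only 114 genes, those over 0.5 in every library compared, against 4645 within COCs 185 to 192. With the number of genes as a covariate, innerCC against outerCC over 16 COCs lost ESR1 (-0.29), INSR (-0.56) and EGFR (-0.25) and turned CYP19A1 (0.26). In COCs 185 to 192 alone all 4 were lost (-0.53, -0.45, -1.05 and -0.94). Within COCs 185 to 192, CYP19A1 turned to 0.16 under median-of-ratios scaling and 0.23 with the covariate, and under median-of-ratios scaling EGFR was -0.04, INSR -0.38 and ESR1 -0.21.

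The 9620 genes lower in innerCCs over 16 COCs became 2772 with median-of-ratios scaling, 4 with the covariate and 190 in COCs 185 to 192, and the 0 higher genes (4 at unadjusted p under 0.05 in limma) became 15 with scaled totals, 17 with median-of-ratios scaling, 4 with the replicate block and 0 to 3 leaving out a COC. In COCs 185 to 192 the 190 lower genes became 30 without the filter, 0 with pseudocount 0.1, scaled totals, median-of-ratios scaling, the replicate block or the covariate, and 0 to 247 leaving out a COC (0 without COC 187, 188 or 189, 2 without COC 192), and the 0 higher genes (9 at unadjusted p under 0.05 in limma) became 0 to 1. The 1747 genes lower in oocytes than innerCCs became 2952 with median-of-ratios scaling. Across outerCCs, scaled totals lost CYP19A1 with EGFR (0.445) and ESR1 with INSR (0.632). Leaving out COC 192, chosen after the data were seen, turned CYP19A1 with ESR1 to 0.119 and with INSR to 0.208, neither called. The causes were not tested.

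Without counts, values near 0 cannot be told from 0. In innerCCs of COCs 176 to 184, where few genes were listed, a difference of these genes was not detectable apart from that of the library.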
